A study of Mus musculus with 13 samples.

Results

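This report compares mouse liver long after partial hepatectomy with liver at the start of the series. The members are the 3m section and the 6m section, joined as the late group and also shown singly, and the 2 sections labelled 0h. They were chosen by their labelled time alone, not by any measured value. These 4 sections are 4 of the 13 in the series and hold 41819 of its 131221 segmented cells. Of the 100 genes in the panel, 99 had enough counts to be tested.

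The study followed regeneration after removal of 2/3 of the liver in C57BL/6 male mice, with frozen sections taken at 7 time points. RNA was read by Molecular Cartography, an imaging assay in which single transcripts of a fixed gene panel are located in a tissue section, and transcripts were then assigned to cells. Mice were 2 months old when operated, were kept on regular chow and received no drug or transgene. The 0h group holds 2 sections, the 3m group 1 section and the 6m group 1 section. Tissue of the later times came from the regrown lobes; the labels state neither the lobe of the 0h sections nor the hour of death. Mice killed 3 or 6 months after surgery were that much older than the 0h mice, so time since resection and age cannot be told apart. The labels do not say that sections came from separate mice, so every p-value below measures only the spread between sections, which may be technical. Section 1 of 0h and the 3m section lay on slide 1, and section 2 of 0h and the 6m section lay on slide 2.

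After resection, hepatocytes of the remaining lobes leave rest, pass through the cell cycle and enlarge until liver mass is restored, and cyclin D1 carries the hepatocyte through G1. The liver lobule runs from portal tracts, where urea synthesis and gluconeogenesis are strong, to the central vein, where Wnt signals from endothelial cells keep Glul, Cyp2e1 and Axin2 high. Macrophages, stellate cells and sinusoidal endothelium lie between the hepatocyte plates and supply signals during regrowth.

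The 4 sections held 8119 to 11813 cells and 2779502 to 4000802 transcripts in cells. The median cell had 314 and 317 transcripts at 0h, 306 at 3m and 231 at 6m. Cps1, a hepatocyte enzyme, was found in 90.9% and 91.1% of cells at 0h, 92.8% at 3m and 87.9% at 6m. The late sections held fewer cells for their area, with 7.91 and 8.62 cells per tile of 400 coordinate units against 10.9 and 11.5 at 0h. A smaller share of their transcripts lay inside cells, 60.2% at 3m and 63.8% at 6m against 75.4% and 79.8% at 0h, while the sections of the other times ranged from 63.1% to 71.0%. The sections of the other times held 7.71 to 9.94 cells per tile. In both values the 0h sections stood apart from the sections of all later times, and the part of these values in the results was not tested.

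Late against 0h, 1 gene of the 99 passed the test and rose, Ccnd1, and none fell (1.01% of the genes tested were higher and 0% lower, edgeR quasi-likelihood test with Benjamini-Hochberg adjustment at 0.05). At an unadjusted p under 0.05 there were 8 higher and 8 lower genes, and DESeq2 called 2 higher and 0 lower. Taken singly, the 3m section gave no call (0% either way; 3 higher and 9 lower at an unadjusted p under 0.05, and 1 each way by DESeq2), and the 6m section gave 11 higher and 12 lower genes (11.1% and 12.1%). With 1 section each, the spread of 3m and of 6m was taken from the other times.

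Levels are given as CPM, counts scaled to a library of fixed size, after TMM scaling, which assumes that most genes keep their level between libraries. TMM factors were 0.804 and 0.622 for the 0h sections, 1.11 for 3m and 0.872 for 6m, so the scaling itself differs between the groups. The median late minus 0h change over the 99 genes was -0.05 on the log2 scale with TMM, 0.42 when counts were divided by the section's total and 0.29 when divided by its number of cells. Of the 99 genes, 47 lay above 0 with TMM, 72 with total counts and 61 with cell number. Both late sections lay above both 0h sections in 17 genes (17.2%) and below both in 20 (20.2%), 37.4% in all, and in 62 genes the groups overlapped. The 17 genes above were above by both other scalings too, under which 29 (29.3%) and 30 (30.3%) genes lay above, a recount added after seeing the data. With total counts the 17 had to stay above, because both late TMM factors exceeded both 0h factors, so that recount is no check of them. With cell number only the order of 6m and section 1 of 0h could have turned, so that recount is a weak check. Of the 20 genes below, 4 remained below with total counts, Apof, Apom, C8b and Glul, and 5 with cell number, those 4 and Axin2 (4.04% and 5.05% of the 99). Statements on lower genes therefore hold for levels relative to the rest of the panel unless another scaling is named.

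Ccnd1, which encodes cyclin D1, stood at 2353 and 1913 CPM in the 0h sections, 4698 CPM at 3m and 6561 CPM at 6m. Both late sections lay above both 0h sections, under cell-number scaling as well. With total counts the same had to hold, given the TMM factors, and with cell number only 6m against section 1 of 0h could have turned. The late level was 1.40 ± 0.29 higher on the log2 scale (SE; 95% interval 0.77 to 2.03, edgeR adjusted p = 0.0299). Within slide 1 the difference was 1.00 and within slide 2 it was 1.78. With slide as a block the change was 1.40 (adjusted p = 0.00645). It stayed positive in all 27 alternatives (1.29 to 1.83) and passed in 20. The call was lost with cell-number scaling (1.67, adjusted p = 0.0734), with the 14d sections as 1 library (1.54, adjusted p = 0.0644) and in a fit of the 0h, 3m and 6m sections alone (1.30, adjusted p = 0.509, or 1.29 and 0.436 with the slide block). It was also lost without section 2 of 0h (1.31, adjusted p = 0.112), section 2 of 14d (1.39, adjusted p = 0.0737) or section 3 of 14d (1.40, adjusted p = 0.0729).

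Set beside the earlier times, which share the 0h sections, the late Ccnd1 level was not the highest of the series. Ccnd1 stood at 8452 CPM at 24h, at 8630 and 9525 CPM at 48h, at 8908 and 7434 CPM at 72h and at 3176 to 4162 CPM in the 3 sections of 14d. The order of the group means was thus 0h, 14d, late, 72h, 24h, 48h, with both late sections above every section of 14d. Late minus 48h was -0.69 ± 0.29 and did not pass (adjusted p = 0.11).

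**Figure D1:**
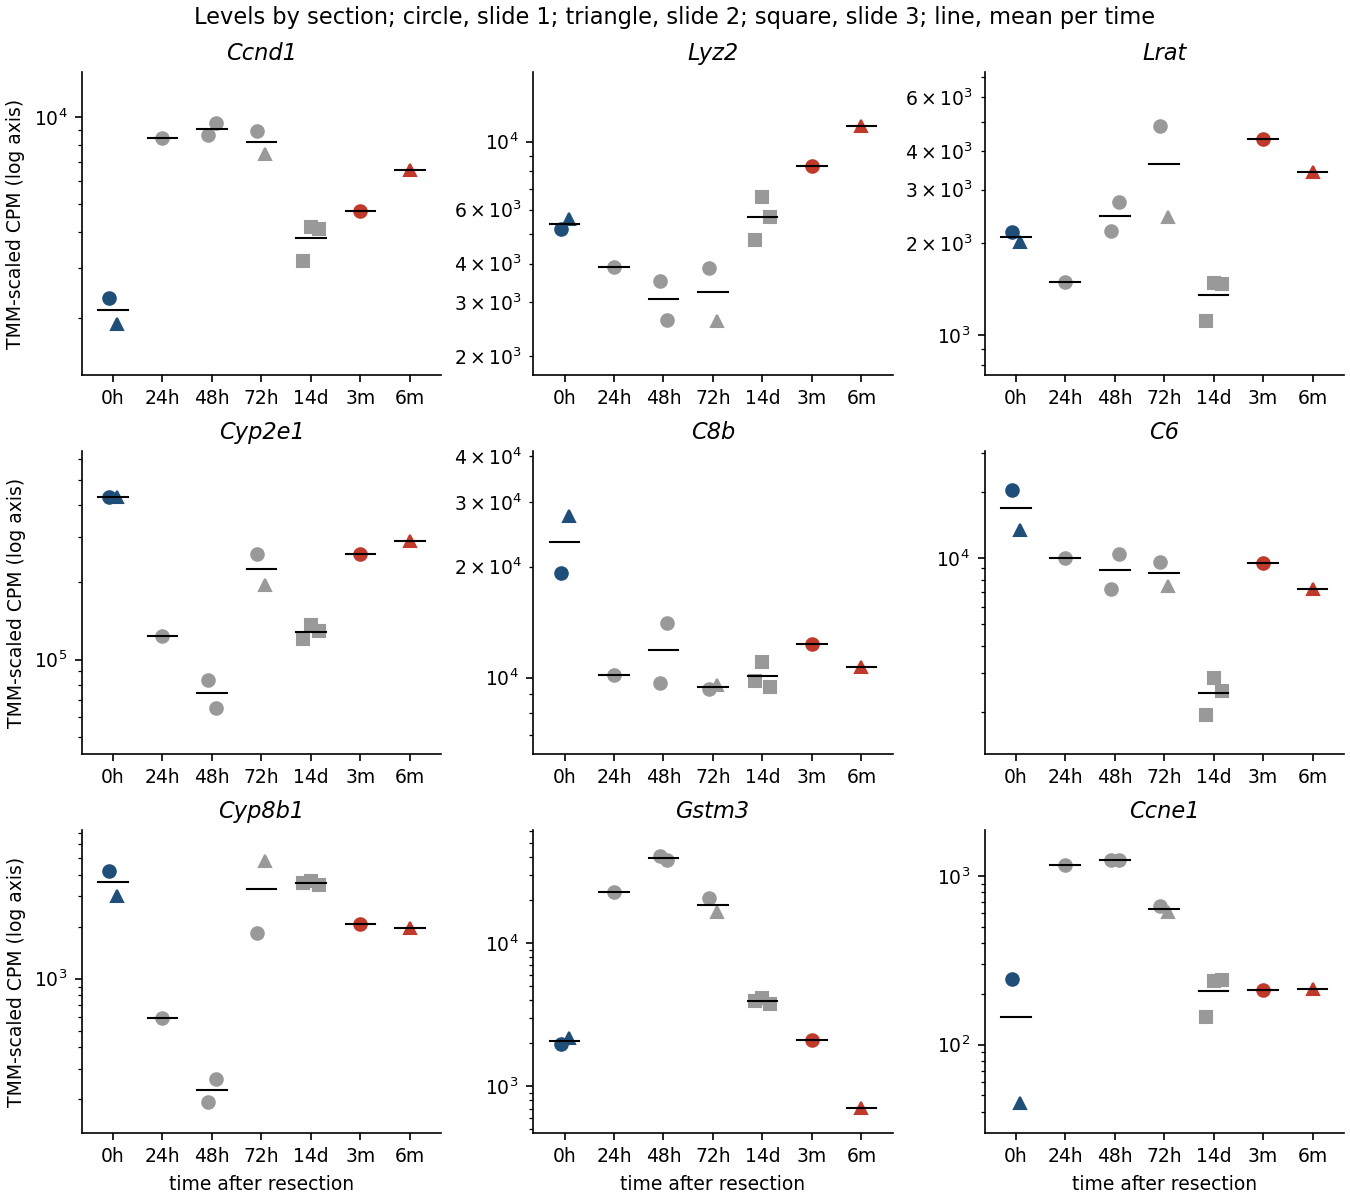
TMM-scaled CPM (log axis) of 9 genes in each library at the 7 times after resection; circles, triangles and squares mark slides 1, 2 and 3, and the line is the mean of a time. Both late points of Ccnd1, Lyz2 and Lrat lie above both 0h points, both late points of Cyp2e1, C8b, C6 and Cyp8b1 lie below, and Gstm3 and Ccne1 lie far under their 48h level.

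The higher Ccnd1 level was spread over more cells. At least 1 Ccnd1 transcript was found in 32.0% and 24.8% of cells at 0h, 55.8% at 3m and 47.0% at 6m. With every cell thinned to 100 transcripts, the shares were 15.5% and 11.5%, then 32.6% and 30.0%. Cells with fewer were left out, which kept 92.2% and 90.8% of cells at 0h, 93.2% at 3m and 83.0% at 6m. Thinning resembles total-count scaling, under which Ccnd1 had to lie above 0h given the TMM factors. Thinned shares, here and below, are thus no separate check of a late rise. Cells with 10 or more Ccnd1 transcripts made up 0.483% and 0.119% at 0h, 2.24% at 3m and 2.58% at 6m. In cells without an Adgre1 transcript, the mean was 0.587 and 0.358 Ccnd1 transcripts per cell at 0h, 1.66 at 3m and 1.41 at 6m. These cells made up 86.7% to 90.8% of the cells of the 4 sections and held 80.5% to 81.5% of all Ccnd1 transcripts in cells. They also held 31.7% to 49.5% of the Lyz2 transcripts, so they are not free of myeloid RNA. In cells with 2 or more Adgre1 transcripts the mean was 1.22 and 0.936 Ccnd1 transcripts at 0h, 2.49 at 3m and 2.51 at 6m. The late sections were thus higher in both kinds of cell. Many cells with 2 or more Adgre1 transcripts also held Lrat, as given below, so they cannot be read as macrophages alone. This split of cells was chosen after seeing the data. Cells are not replicates, and 2 sections against 2 allow no exact test that could pass, so these shares are given without a p-value.

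None of the other cyclins passed. Ccne1, the G1 to S cyclin, had 247 and 45.0 CPM at 0h, 210 CPM at 3m and 214 CPM at 6m, and the groups overlapped (0.54 ± 0.58, adjusted p = 0.573). Ccnb1, a mitotic cyclin, had 3 and 0 counts at 0h, 0 at 3m and 1 at 6m. Ccna1 had 8 counts at 3m and 0 in the other 3 sections. Of the 4 cyclins tested, 1 was higher, Ccnd1, the only gene called, beside 1.01% of all 99 genes. Their median change of 0.97 is the middle of the Ccnd1 and Ccne1 values. Ccna1 had an unadjusted p of 0.0432 for the late group (adjusted p = 0.267), from the 8 counts of 1 section. Against 48h, when Ccne1 stood at 1242 CPM in each section, the late level of Ccne1 fell by 2.55 on the log2 scale (± 0.60, adjusted p = 0.0131).

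Among markers of the other liver cells, Lyz2 and Lrat stood higher in both late sections, while the endothelial and general leukocyte markers did not on the TMM scale. Lyz2, lysozyme of macrophages and other myeloid cells, had 5203 and 5583 CPM at 0h, 8337 CPM at 3m and 11211 CPM at 6m. The groups did not overlap, and the difference of 0.86 ± 0.31 (0.20 to 1.52) did not pass for the late group (adjusted p = 0.146) but passed for 6m alone (1.06, adjusted p = 0.0256). Lrat, which stores retinol as ester in stellate cells, had 2178 and 2024 CPM at 0h, 4394 CPM at 3m and 3425 CPM at 6m. These groups did not overlap either, and the difference of 0.90 ± 0.35 did not pass (adjusted p = 0.197). In bulk sums, more cells of a type and more RNA per cell cannot be told apart.

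Adgre1, the F4/80 antigen of Kupffer cells, did not move with Lyz2: it had 1076 and 895 CPM at 0h, 822 CPM at 3m and 888 CPM at 6m (-0.21 ± 0.37). Its direction turned positive with total counts (0.25) and with cell number (0.11). Ptprc, the CD45 antigen of all leukocytes, had 724 and 1069 CPM at 0h, 659 CPM at 3m and 677 CPM at 6m (-0.42), and with total counts it was also above 0 (0.08). The macrophage pair Adgre1 and Lyz2 summed to 6279 and 6478 CPM at 0h, 9159 CPM at 3m and 12099 CPM at 6m. Neither marker was at 0 counts in any of the 4 sections.

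Per cell, Lyz2 was found in 23.0% and 21.0% of cells at 0h, 34.6% at 3m and 35.3% at 6m, and after thinning in 17.0%, 15.1%, 26.6% and 27.5%. Adgre1 was found in 11.4% and 9.19% of cells at 0h, 13.3% at 3m and 10.7% at 6m, and after thinning in 7.21%, 5.40%, 7.88% and 6.97%, so its groups overlapped both ways. Cells with 2 or more Adgre1 transcripts made up 6.12% and 4.24% of cells at 0h, 7.16% at 3m and 4.88% at 6m. In these cells the mean was 11.5 and 9.34 Lyz2 transcripts at 0h, 19.3 at 3m and 16.2 at 6m. In cells with no Adgre1 transcript it was 0.511 and 0.583, then 1.34 and 1.46, so the late sections were higher in both kinds of cell. Neither kind is a pure cell type.

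Lrat was found in 29.0% and 22.8% of cells at 0h, 51.1% at 3m and 36.3% at 6m, and after thinning in 15.5%, 11.7%, 32.5% and 23.4%. These are not shares of stellate cells. Among cells with 2 or more Adgre1 transcripts, Lrat was found in 56.3% and 51.1% at 0h, 80.4% at 3m and 67.7% at 6m. Among cells without Adgre1 it was found in 25.9%, 20.5%, 47.2% and 33.2%. Pecam1, the CD31 antigen of endothelium, was found after thinning in 17.5% and 14.5% of cells at 0h, 24.2% at 3m and 17.7% at 6m, both above 0h. Thinning to a fixed number resembles total-count scaling, under which more genes lie above 0h than with TMM. At the section level Pecam1 had 2880 and 2606 CPM at 0h, 2699 CPM at 3m and 2594 CPM at 6m. Its change was -0.05 ± 0.28 and the interval (-0.65 to 0.55) lay inside 2-fold. The summed endothelial markers, Pecam1, Wnt2, Wnt9b and Rspo3, stood at 3621 and 3263 CPM at 0h, 3412 CPM at 3m and 3092 CPM at 6m.

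**Figure D2:**
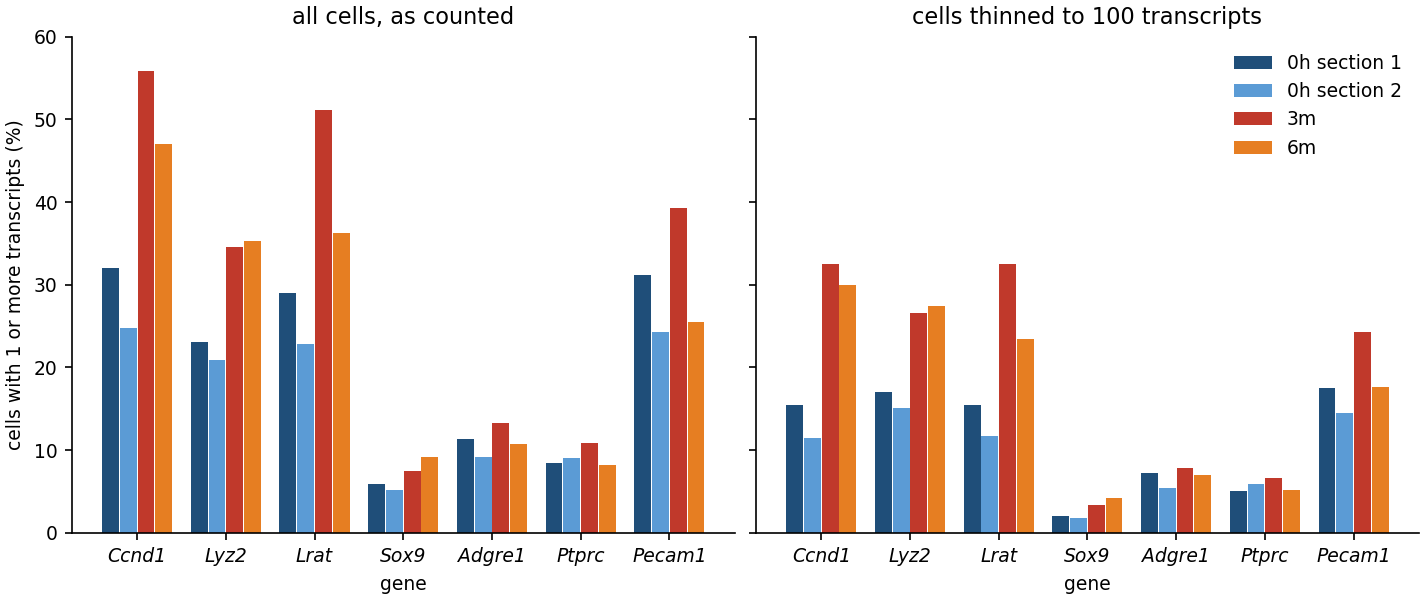
Share of cells (%) with 1 or more transcripts of 7 genes in each of the 4 sections, as counted (left) and with each cell thinned to 100 transcripts (right); 1 bar per section, no error bars. In both panels the 3m and 6m bars of Ccnd1, Lyz2 and Lrat stand above both 0h bars, and for Adgre1 and Ptprc after thinning the groups overlap.

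Sox9 and Cldn7, which mark bile duct and progenitor cells, stood highest in the 6m section. Sox9 had 343 and 359 CPM at 0h, 393 CPM at 3m and 910 CPM at 6m. The 3m value lay just above the 0h sections and the late group did not pass (0.89 ± 0.43, adjusted p = 0.31), whereas 6m alone rose by 1.37 (adjusted p = 0.0256). Cldn7 had 39.2 and 14.1 CPM at 0h, 41.2 CPM at 3m and 69.8 CPM at 6m (1.05, not passed). After thinning, Sox9 was found in 2.07% and 1.80% of cells at 0h, 3.40% at 3m and 4.16% at 6m.

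Among proteins that hepatocytes secrete, C8b and C6 of the terminal complement pathway stood low in both late sections. C8b, a chain of the complement membrane attack complex, had 19198 and 27450 CPM at 0h, 12303 CPM at 3m and 10662 CPM at 6m. Both late sections lay below both 0h sections under all 3 scalings. The change of -1.02 ± 0.29 (-1.65 to -0.40) did not pass (adjusted p = 0.146), was -0.50 with total counts and -0.62 with cell number, and passed for 6m alone (-1.13, adjusted p = 0.0256). C6, another component of that complex, had 20405 and 13456 CPM at 0h, 9493 CPM at 3m and 7231 CPM at 6m. Its change of -1.02 ± 0.33 did not pass (adjusted p = 0.146), and with total counts its groups overlapped. Vtn, the clearance factor vitronectin, had 74659 and 138173 CPM at 0h, 42992 CPM at 3m and 104831 CPM at 6m and overlapped. The 3 genes had a median change of -1.02, against -0.05 over all 99, and all 3 lay below 0 under each scaling.

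C8b was also low through the earlier times. It had 9693 and 14043 CPM at 48h, and its fitted difference from 0h was -1.20 at 24h, -0.97 at 48h, -1.31 at 72h and -1.21 at 14d, each called lower (3.03%, 5.05%, 4.04% and 12.1% of the 99 genes were lower at these times). Late minus 48h was -0.05 ± 0.29 (adjusted p = 0.917), which does not show that the 2 levels are equal. These values share the 0h sections with the late value and are no independent support for it.

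The apolipoproteins followed the same direction. Apom, a carrier of sphingosine 1-phosphate on HDL, had 5597 and 11354 CPM at 0h, 3902 CPM at 3m and 4895 CPM at 6m (-0.95 ± 0.33, adjusted p = 0.146). Apof, an inhibitor of lipid transfer, had 21867 and 37501 CPM at 0h, 14301 CPM at 3m and 19481 CPM at 6m (-0.81 ± 0.29, adjusted p = 0.146). Neither passed, but the groups did not overlap for either under any of the 3 scalings. Pon1, the HDL esterase paraoxonase, had 18566 and 23491 CPM at 0h, 16316 CPM at 3m and 8219 CPM at 6m, and fell at 6m alone (-1.36, adjusted p = 0.00465). Of the 8 lipid genes, 4 lay below both 0h sections with TMM, against 20.2% of all genes, and none above; with total counts Apof and Apom still did, against 4.04% of all genes. Their median change was -0.27, and it was 0.24 with total counts and 0.13 with cell number.

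The genes of the insulin-like growth factor axis were not alike. Igf1 had 19511 and 13687 CPM at 0h, 16944 CPM at 3m and 6572 CPM at 6m. The 3m value lay between the 0h sections, and 6m alone fell by 1.34 on the log2 scale (± 0.35, adjusted p = 0.0102). Igfbp2, an IGF carrier that is high in fetal and fasted liver, had 10882 and 17530 CPM at 0h, 14524 CPM at 3m and 30653 CPM at 6m. It rose at 6m (1.11, adjusted p = 0.0179), with 3m again between the 0h sections. Igfals, the acid-labile subunit, had 300 and 78.4 CPM at 0h, 138 CPM at 3m and 46.8 CPM at 6m and did not pass. The median of these 3 genes was -0.50 late, 0.02 with total counts.

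Cyp2e1, the ethanol-oxidising cytochrome P450 of central hepatocytes and the most abundant transcript of the panel, had 426360 and 429055 CPM at 0h, 258143 CPM at 3m and 287991 CPM at 6m. The groups did not overlap on this scale (-0.65 ± 0.20, adjusted p = 0.146). As a share of all counts it took 34.3% and 26.7% at 0h, 28.6% at 3m and 25.1% at 6m, which overlap. Cyp1a2, the caffeine-oxidising P450, had 9979 and 5803 CPM at 0h, 4784 CPM at 3m and 3627 CPM at 6m (-0.91 ± 0.31, adjusted p = 0.146) and was lower at 6m alone (-1.12, adjusted p = 0.0284).

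Of the bile acid enzymes, Cyp8b1, which makes cholic acid, had 4220 and 3007 CPM at 0h, 2081 CPM at 3m and 1975 CPM at 6m (-0.83 ± 0.39, adjusted p = 0.305). Its groups did not overlap with TMM, and with total counts they did. Cyp7a1, the rate-limiting enzyme of the pathway, had 3117 and 147 CPM at 0h, 1783 CPM at 3m and 652 CPM at 6m. The 0h sections themselves differed more than the groups (-0.42 ± 1.33), so a late change in Cyp7a1 could not be resolved. Cyp27a1, of the acidic pathway, had 14636 and 11195 CPM at 0h, 12700 CPM at 3m and 4223 CPM at 6m, and fell at 6m alone (-1.61 ± 0.37, adjusted p = 0.00398). The 4 genes of bile acid and taurine synthesis had a late median of -0.52, and of -0.05 with total counts.

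The mu-class glutathione S-transferases, which conjugate electrophiles, were near their 0h level at 3m and under it at 6m. Gstm3 had 1961 and 2165 CPM at 0h, 2105 CPM at 3m and 710 CPM at 6m (3m 0.03, 6m -1.54 ± 0.32 with adjusted p = 0.0028). Gstm2 had 1549 and 1716 CPM at 0h, 1296 CPM at 3m and 589 CPM at 6m, and fell at 6m (-1.47, adjusted p = 0.0041). Gstm1 had 72.4 and 119 CPM at 0h, 76.2 CPM at 3m and 53.6 CPM at 6m and did not pass. The 3 genes are similar in sequence, and the labels do not say how far the probes separate them.

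Among other genes low at 6m, Rgn, the calcium-binding protein regucalcin, had 10172 and 6435 CPM at 0h, 10506 CPM at 3m and 1993 CPM at 6m. It fell at 6m alone (-2.06 ± 0.40, adjusted p = 0.00179), and the call held in all 23 alternatives for 6m. Cpox, of heme synthesis, had 4424 and 2930 CPM at 0h, 3140 CPM at 3m and 1206 CPM at 6m (6m -1.61, adjusted p = 0.00398). In both genes the 3m section lay within or just above the 0h range, so 6m stood apart.

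The 3 urea cycle genes of the panel differed in direction. Cps1, the first enzyme of the cycle, had 93171 and 126177 CPM at 0h, 80376 CPM at 3m and 87461 CPM at 6m; its -0.39 ± 0.22 turned to 0.11 with total counts, and the interval lay inside 2-fold. Ass1, argininosuccinate synthase, had 6516 and 6826 CPM at 0h, 8123 CPM at 3m and 8325 CPM at 6m, above both 0h sections (0.30 ± 0.33, not passed). Arg1, arginase, had 15480 and 15402 CPM at 0h, 12542 CPM at 3m and 8258 CPM at 6m and was lower at 6m alone (-0.90, adjusted p = 0.0465). The median of the 3 was -0.39, and 0.11 with total counts.

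Pck1 and G6pc, which are gluconeogenic, differed more between the slides than between the times. Pck1, the entry enzyme, had 113282 and 298830 CPM at 0h, 71834 CPM at 3m and 213128 CPM at 6m. G6pc, the last step, had 13474 and 108643 CPM at 0h, 6347 CPM at 3m and 35259 CPM at 6m. In both genes the 2 sections on slide 2 were high and the 2 on slide 1 low, and within slides the late section was lower each time (Pck1 -0.66 and -0.49, G6pc -1.09 and -1.62). The fitted changes were -0.53 ± 0.60 and -1.55 ± 1.10, neither of which passed. Both genes respond to fasting, and the labels give no feeding state at death. Fbp1, of the same pathway, had 39285 and 35784 CPM at 0h, 39630 CPM at 3m and 35017 CPM at 6m (-0.01 ± 0.25, interval -0.54 to 0.52).

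Wnt2 and Wnt9b are the Wnt ligands of liver endothelium. Wnt2 had 354 and 302 CPM at 0h, 381 CPM at 3m and 286 CPM at 6m, with an interval inside 2-fold (-0.78 to 0.83). Wnt9b had 182 and 185 CPM at 0h, 120 CPM at 3m and 118 CPM at 6m, with no overlap with TMM but a change that did not pass (-0.62 ± 0.40, adjusted p = 0.378). Rspo3, the R-spondin that amplifies Wnt signals at the central vein, had 205 and 170 CPM at 0h, 212 CPM at 3m and 93.2 CPM at 6m.

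Over all 18 Wnt ligands tested, of 19 in the panel, none passed for the late group or for 3m, and 3 rose at 6m, beside 11.1% of all 99 genes. Their medians were -0.07 at 3m, 1.12 at 6m and 0.74 late. Of the 10 Frizzled receptors, none passed late or at 3m and 3 rose at 6m, beside the same 11.1%, with medians of 0.34, 0.97 and 0.66. The called ligands were Wnt10a, with 519 and 901 CPM at 0h, 429 CPM at 3m and 1971 CPM at 6m (1.47, adjusted p = 0.0256), Wnt16 (1.85, adjusted p = 0.0476) and Wnt8a (2.76, adjusted p = 0.0365). The called receptors were Fzd6, with 23.8 and 28.5 CPM at 0h, 21.4 CPM at 3m and 137 CPM at 6m (2.39, adjusted p = 0.00398), Fzd9 (1.85, adjusted p = 0.0326) and Fzd2.

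Several of these rest on few transcripts. Fzd2 had 1 and 0 counts at 0h, 2 at 3m and 21 at 6m, a late to 0h ratio of 22.8 with a counting interval of 3.70 to 939. Slc16a10, an aromatic amino acid transporter, had 11 and 6 counts at 0h, 16 at 3m and 83 at 6m (6m 3.43, adjusted p = 0.00179). The 17 genes with a mean under 20 CPM summed to 83.5 and 76.8 CPM at 0h, 95.01 CPM at 3m and 209.5 CPM at 6m. Their median change at 6m was 1.26, against -0.28 over the other genes, and 13 of the 17 lay above 0. At 3m these medians were 0.24 and -0.09. Scarce transcripts as a class were thus higher in the 6m section, which also had the fewest transcripts per cell, and the part of either in the Wnt, Frizzled and Slc16a10 calls was not tested.

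Of the 10 Wnt target genes of hepatocytes, 1 rose, Ccnd1, the only gene called, and none fell, beside 1.01% and 0% of all 99 genes. Their median was -0.43 with TMM and -0.00 with total counts. Axin2, a feedback inhibitor that reports canonical Wnt activity, had 450 and 499 CPM at 0h, 204 CPM at 3m and 427 CPM at 6m (-0.59 ± 0.45, adjusted p = 0.417). Glul, glutamine synthetase of the cells next to the central vein, had 8622 and 13109 CPM at 0h, 5660 CPM at 3m and 7632 CPM at 6m (-0.71 ± 0.38, adjusted p = 0.344), below both 0h sections under each scaling. Lgr5, an R-spondin receptor, had 44.7 and 62.7 CPM at 0h, 82.4 CPM at 3m and 88.5 CPM at 6m, above both 0h sections (0.67 ± 0.41, adjusted p = 0.378). Znrf3, the ligase that removes Wnt receptors, had 1594 and 1043 CPM at 0h, 1432 CPM at 3m and 1461 CPM at 6m, between the 0h values (0.13, -0.56 to 0.82). The co-receptor Lrp6 had 9771 and 12658 CPM at 0h, 13209 CPM at 3m and 18828 CPM at 6m (0.51, not passed). Yap1, the effector of Hippo signalling, had 3398 and 4142 CPM at 0h, 2624 CPM at 3m and 3021 CPM at 6m; its change of -0.42 ± 0.27 had an interval inside 2-fold and was 0.06 with total counts.

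A p that misses the threshold does not show a return to the 0h level, so the width of each interval was read as well. For 19 of the 99 genes (19.2%) the 95% interval of the late change lay inside 2-fold either way, and for the other 80 it did not. The 19 were Alad, Arnt, Atp5a1, Cldn2, Cps1, Elovl2, Epas1, Fads1, Fbp1, Fzd4, Fzd5, Gls2, Hpd, Hsd17b13, Pecam1, Prodh, Wnt2, Yap1 and Znrf3. They include 4 of the 8 periportal markers, Cps1, Fbp1, Gls2 and Hsd17b13, and 1 of the 12 pericentral markers, Cldn2. The 12 pericentral genes had a median of -0.56 and the 8 periportal genes one of -0.20, which became -0.03 and 0.29 with total counts. In the fit of the 0h, 3m and 6m sections alone no interval lay inside 2-fold, so these bounds rest on the spread shared with the earlier times.

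**Figure D3:**
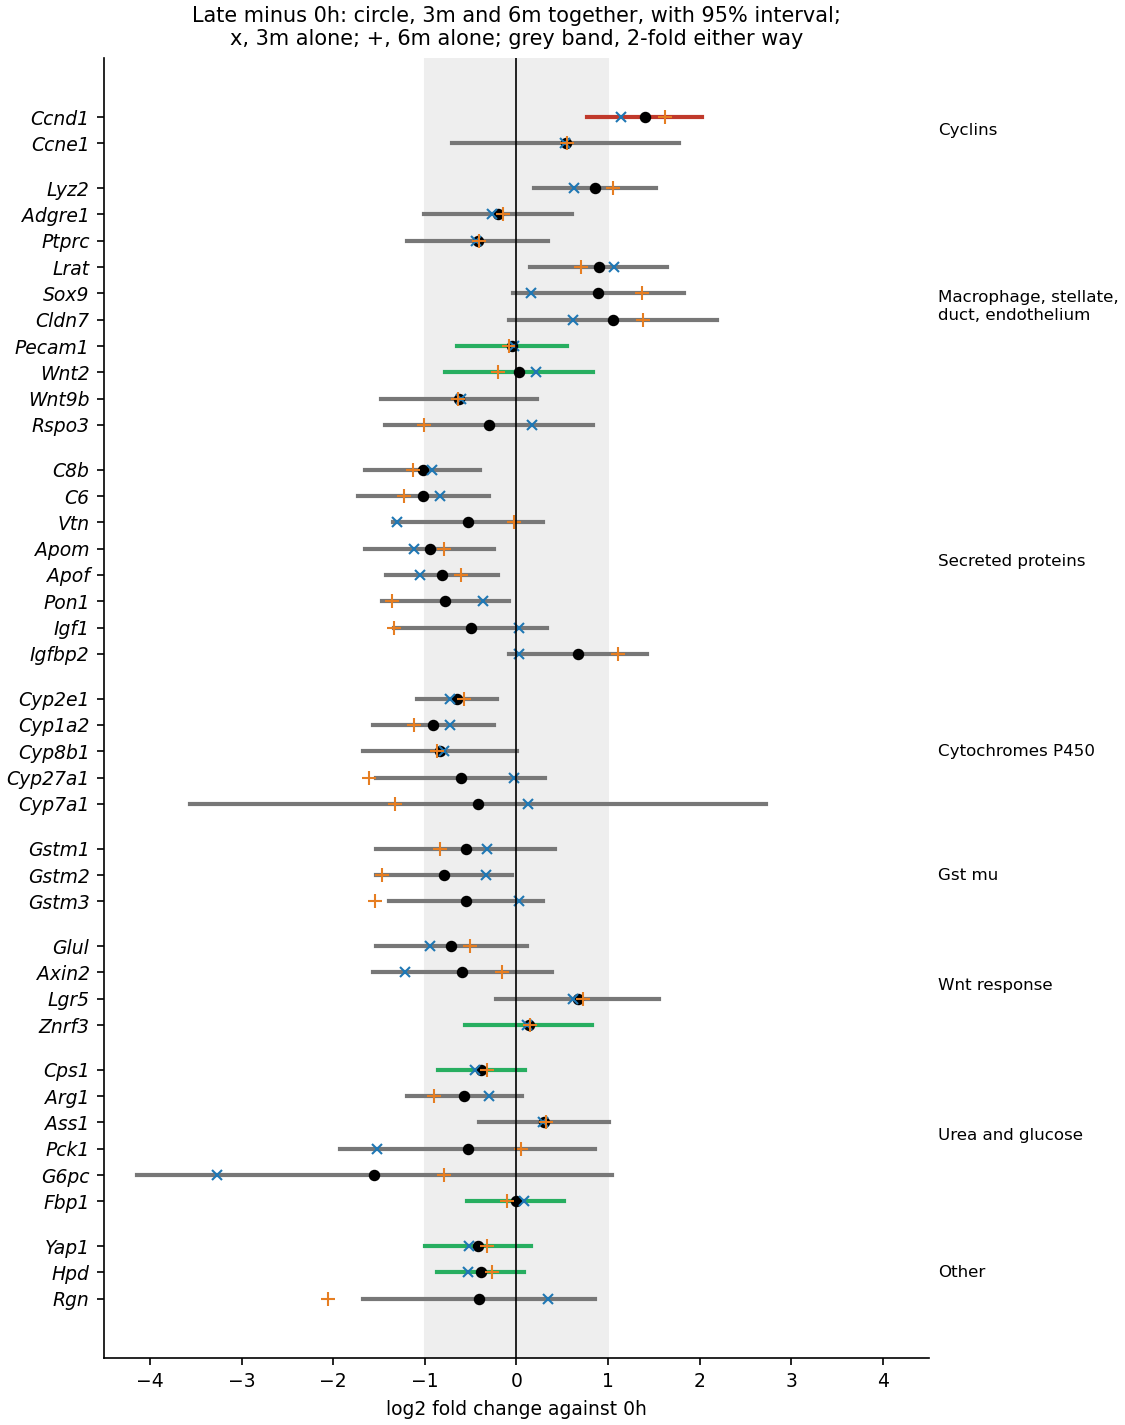
Log2 fold change against 0h of named genes, grouped by role; the circle and bar are the late group with its 95% interval, x is 3m alone, + is 6m alone, and the grey band is 2-fold either way. A red bar passed the test (Ccnd1), a green bar lies inside 2-fold and a grey bar does neither; for Rgn, Gstm3 and Igf1 the + lies far left of the x.

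Against 48h, early in regrowth, 16 genes passed late, 6 higher (6.06%) and 10 lower (10.1%). Gstm3 stood at 40719 and 38217 CPM at 48h against 2105 CPM at 3m and 710 CPM at 6m (-4.81 ± 0.46, adjusted p = 6.35e-06). Gstm2 (-3.13 ± 0.37, adjusted p = 3.17e-05) and Gstm1 (-3.03 ± 0.48, adjusted p = 0.000468) fell with it. In the other direction, Cyp2e1 stood at 83498 and 64692 CPM at 48h and was 1.88 ± 0.21 higher late (adjusted p = 2.1e-05). Cyp8b1 stood at 192 and 261 CPM at 48h and was 3.16 ± 0.42 higher late (adjusted p = 9.07e-05). For these 5 genes the late sections lay far from 48h, while the late interval against 0h still allowed a difference of over 2-fold.

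The remaining genes called against 48h were Lyz2 (1.68 ± 0.31, adjusted p = 0.0019), Wnt10a (2.10), Fzd6 (2.17) and Mogat1 (1.41) on the higher side. On the lower side they were Ccne1 as given above, Lect2 (-1.92), Cldn2, a tight junction claudin (-1.44), Apom (-1.16), the sulfatase Sulf2 (-2.56), Wnt9b (-1.34) and Wnt5b (-1.46). Lyz2 stood at 3503 and 2616 CPM at 48h, below both 0h and both late sections. Apom and Wnt9b were lower late than at 48h and also lay below both 0h sections with TMM. With cell-number scaling the counts were 2 higher and 6 lower.

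The 2 late sections were not alike. In TMM-scaled levels, 40 genes differed by more than 1 on the log2 scale between 6m and 3m, and 27 between the 2 sections of 0h. The 3m section differed from section 1 of 0h in 16 genes and from section 2 in 31, and the 6m section in 45 and 38. The 3m section was thus closer to section 1 of 0h, on its own slide, than the 0h sections were to each other. Tested directly, 14 genes differed between 6m and 3m, 5 higher (5.05%) and 9 lower (9.09%) at 6m, a contrast added after seeing the data. Rgn had the smallest p (-2.40, adjusted p = 0.00257). With slide as a block 1 gene, Rgn, was still called (-1.71, adjusted p = 0.0174), and with the 14d sections as 1 library 1 gene. Since 3m lay on slide 1 and 6m on slide 2, and each time is 1 section, time and section cannot be told apart.

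The 23 genes called at 6m against 0h fell into a few groups. Higher were Ccnd1, Lyz2, Sox9 and Igfbp2, the Wnt and Frizzled genes above and Slc16a10. Lower were Rgn, Gstm2, Gstm3, Cyp27a1, Cyp1a2, Cpox, Pon1, Igf1, C8b, C6, Arg1 and Uqcrh, a subunit of respiratory complex III (-1.45, adjusted p = 0.0201). The 12 lower genes became 7 with total counts and 3 with cell number, and the 11 higher became 5 with cell number. With the 14d sections as 1 library 4 higher and 2 lower genes were called.

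Each slide held 1 section of 0h and 1 late section, so the late change could be read in 2 pairs with no section in common. Of 89 genes with at least 10 counts in all 4 sections, 59 had the same direction within both slides. Over all 99 genes, 23 differed by more than 0.5 on the log2 scale the same way in both, 10 up and 13 down. Lyz2 gave 0.68 and 1.01, Lrat 1.01 and 0.76, C6 -1.10 and -0.90, C8b -0.64 and -1.36 and Cyp2e1 -0.72 and -0.58. Each of these genes differed the same way in both pairs, which had to be so. In each of them, as in Ccnd1, both late sections lay beyond both 0h sections on the same side. The shared direction is therefore no further support for these genes. Between slide 2 and slide 1, 11 genes differed by more than 1 the same way at 0h and late, among them Pck1, G6pc, Cyp7a1, Csad, Oat and Igfals, and 5 did so in opposite ways. In the pair of 72h sections on these slides 1 of the 11, Fzd10, differed so again, while Pck1 differed by 0.17 and G6pc by 0.63. The 48h sections, both on slide 1, differed by -1.02 for Pck1 and -1.48 for G6pc. These gaps were smaller than those between the slides. The latter were 1.40 at 0h and 1.57 late for Pck1, and 3.01 and 2.47 for G6pc. This look at slide pairs was added after seeing the data.

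**Figure D4:**
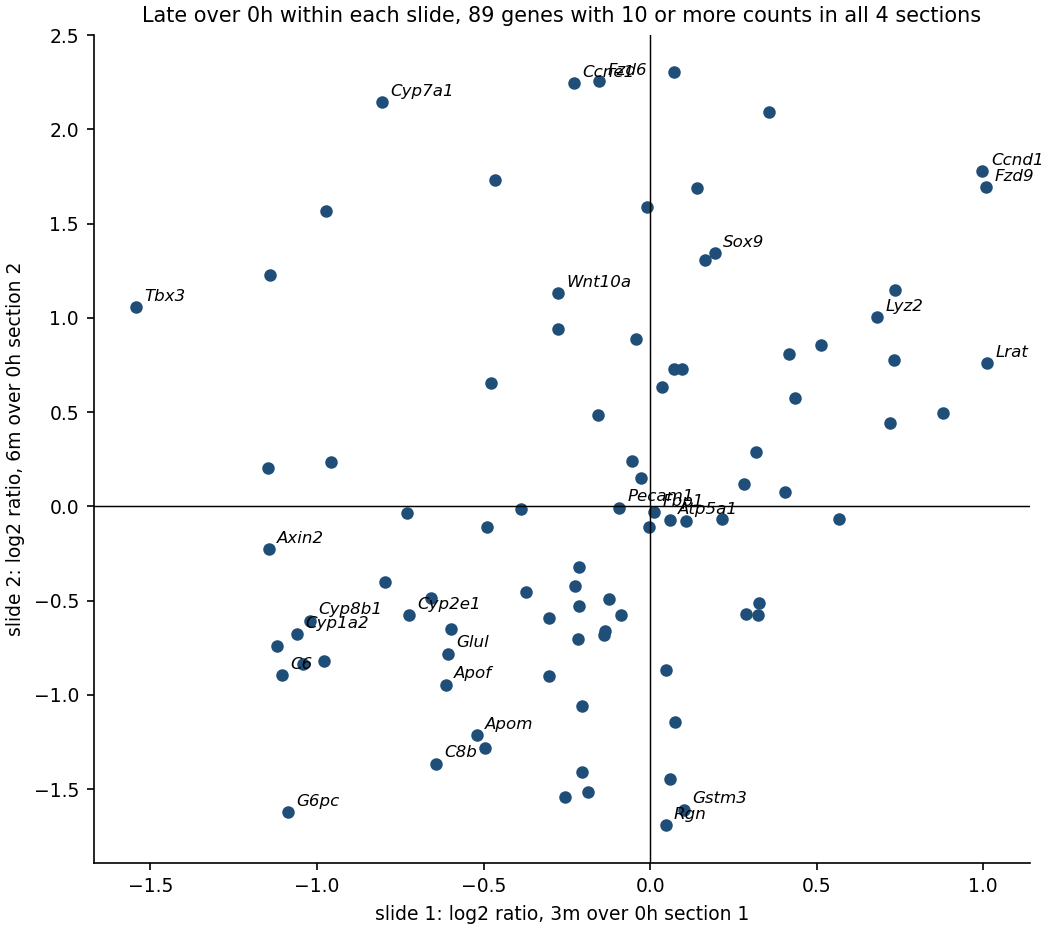
Log2 ratio of TMM-scaled CPM of 3m over section 1 of 0h on slide 1 (x axis) against 6m over section 2 of 0h on slide 2 (y axis), for 89 genes. Ccnd1, Lyz2 and Lrat lie in the upper right and C8b, C6, Cyp1a2 and G6pc in the lower left, while Rgn, Gstm3 and Fzd6 lie near 0 on x and far from 0 on y.

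Position in the lobule was read from tiles of 400 units, each scored by its central genes minus its portal genes without the gene tested. A gene's Spearman correlation with this score across tiles is near 1 for a central gene and near -1 for a portal one; tiles share their section and are not replicates. Of 62 genes with enough transcripts, none passed the limma test of the late against the 0h correlations (0%), and 9 did at an unadjusted p under 0.05 (14.5%). The main central genes kept their side: Cyp1a2 had correlations of 0.89 and 0.91 at 0h, 0.86 at 3m and 0.84 at 6m. Rgn, low as it was at 6m, had 0.89 and 0.90, then 0.86 and 0.81. Both late correlations lay above both of 0h in 2 genes (3.23%) and below in 14 (22.6%).

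The 4 genes with the smallest p were Lrat, G6pc, Gstm3 and Prodh; C6 differed by as much, but its 0h sections lay far apart (-0.47 and 0.36 at 0h, -0.66 and -0.43 late, difference in Fisher z -0.56, adjusted p = 0.26). Lrat had -0.18 and 0.05 at 0h and -0.57 and -0.47 late, so that it lay on the portal side in the late sections (difference in Fisher z -0.52, interval -0.80 to -0.23, adjusted p = 0.0781). G6pc had -0.85 and -0.90 at 0h and -0.54 and -0.73 late, a weaker portal position (0.60, adjusted p = 0.0781). Gstm3 had 0.84 and 0.74 at 0h and 0.64 and 0.46 late (-0.46, adjusted p = 0.0841). Prodh, proline dehydrogenase, had 0.61 and 0.76 at 0h and 0.18 and 0.43 late (-0.53, adjusted p = 0.0841). For all 4 the late and 0h sections did not overlap. Axin2 (0.68 and 0.65, then 0.52 and 0.39) and Cldn2 (0.65 and 0.52, then 0.38 and 0.18) were also less central in both late sections. With slide as a block 5 genes passed, C6, G6pc, Gstm3, Lrat and Prodh. With single cells thinned to 100 transcripts in place of tiles the differences were smaller and none passed, -0.05 for Lrat, 0.26 for G6pc, -0.16 for Gstm3 and -0.14 for Prodh. Without section 1 of 0h 6 genes passed, and without 6m 3 did.

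**Figure D5:**
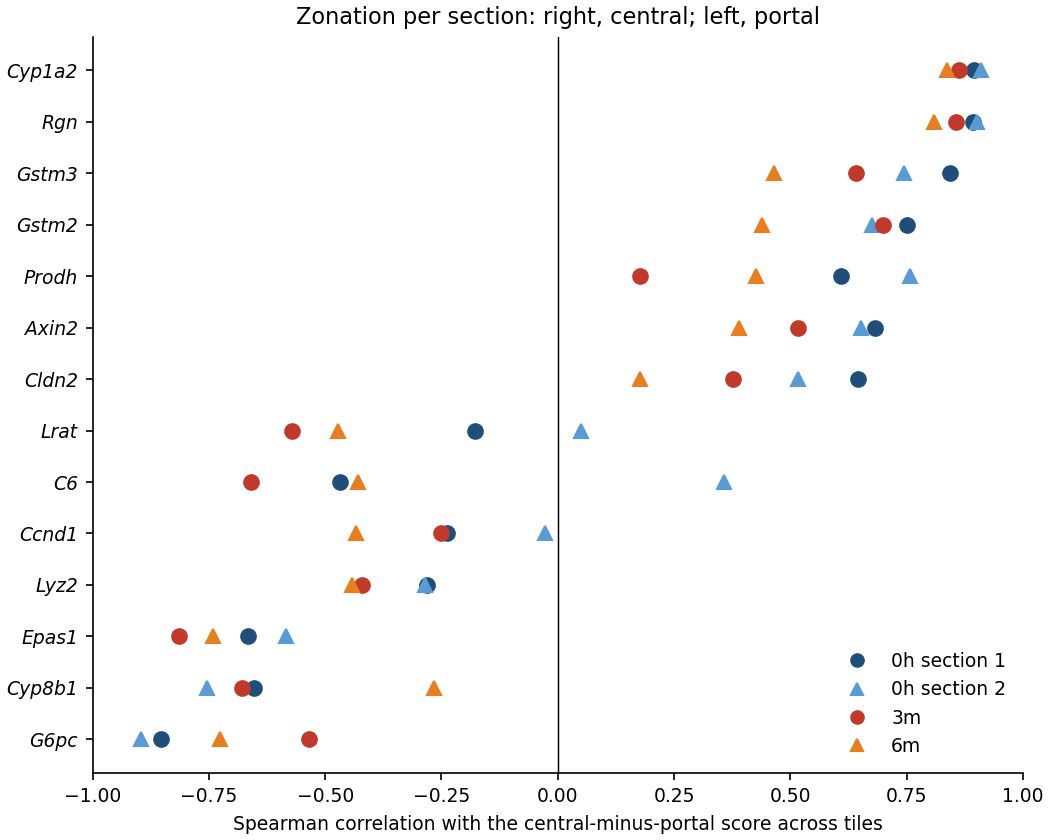
Spearman correlation of 14 genes with the central-minus-portal score across tiles, in each of the 4 sections (blue, 0h; red and orange, 3m and 6m); right is central and left is portal. Cyp1a2 and Rgn stay far right in all 4 sections, and the late points of Gstm3, Prodh, Axin2, Cldn2 and Lrat lie left of both 0h points.

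The tiles of each section were then split by score into central, middle and portal zones of equal tile number, and their transcripts summed. None of the 96, 97 and 94 genes tested passed late against 0h in the central, middle or portal zone (0% in each, edgeR). Ccnd1 was higher in both late sections in each zone. In the portal zone it had 2391 and 1603 CPM at 0h, 4831 CPM at 3m and 8212 CPM at 6m (1.71 ± 0.36, adjusted p = 0.08), and in the central zone 1480 and 1597, then 2998 and 2955 CPM (0.95). C8b was lower by about the same amount in all zones (-1.03 central, -0.95 middle, -1.02 portal). Cyp2e1 differed by -0.17 in the central, -0.77 in the middle and -1.90 in the portal zone. Gstm3 ran the other way, with -0.56 in the central and 1.74 in the portal zone, where it had 319 and 166 CPM at 0h, 1098 CPM at 3m and 522 CPM at 6m. Lrat differed by 0.47, 0.79 and 1.34 from central to portal. The differences between zones were not tested, and the zones are equal numbers of tiles, not equal parts of the lobule.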

How the data were processed

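Transcripts were located by Molecular Cartography at Resolve Biosciences, per the labels' protocols; the labels name no segmentation settings. The authors deposited whole-number counts per gene and cell for each of the 13 sections and, for 12 of them, the position of each transcript in coordinate units of unstated length (unit: other). The submitters' processing was used as deposited. Counts were summed over the cells of a section, giving 12 libraries because the 24h sections were summed. A gene needed 10 counts or more in 2 or more libraries (99 of 100 did). Late against 0h was fitted in edgeR 4.0.16 (R 4.3.3) with TMM, robust quasi-likelihood and 6 groups (6 residual degrees of freedom); 3m and 6m singly used 7 groups (5 residual degrees of freedom). Standard errors are the log2 change divided by the square root of F. Adjusted p-values are Benjamini-Hochberg over all genes tested. Ratios within slides used a prior of 0.5 counts. Zonation used tiles with at least 50 transcripts, 9 central and 6 portal genes, genes with at least 500 transcripts per section and limma 3.58.1. Alternatives were other scalings and filters, DESeq2 1.42.0, all transcripts with a position, slide as a block, other groupings, and each section left out.

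Named genes were those called, then those with the largest changes among genes without overlap, up to 3 further members of each list, and a fixed set of regeneration and zonation genes; genes called at other times, and those in the lists of intervals inside 2-fold, at 6m and between slides, are named with their values or side. Members, lists and this rule were chosen with earlier results of these data known. The late against 0h fit was tested on simulated counts without a slide effect, with changes set only in well-counted genes. The zonation fit was tested on simulated correlations. The fits of 3m and 6m singly were not tested in this way. Cells shared by name between the 4 sections numbered 0 to 2 per pair, none with identical counts.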

Additional observations from a re-analysis of the deposited data

Results flagged for a closer look

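Tested against each other, 14 genes differed between the 6m and the 3m section (6m minus 3m on the log2 scale, edgeR, adjusted p from 0.00257 to 0.0457). Lower at 6m were Rgn (-2.40), Lgr4 (-1.87), Cyp27a1 (-1.59), Gstm3 (-1.57), Uqcrh (-1.52), Cpox (-1.38), Igf1 (-1.37), Elovl2 (-1.32) and Gstm2 (-1.14). Higher at 6m were Fzd2 (3.63), Fzd6 (2.68), Slc16a10 (2.66), Wnt10a (2.20) and Vtn (1.29). Each side is 1 section on a slide of its own, and across the alternatives the number of genes called ran from 1 to 26.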

How the results depend on the processing

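No paired analysis was possible by section number, because the 3m and 6m labels carry none shared with 0h; the sections were paired by slide instead, and with slide as a block Ccnd1 stayed the called gene late against 0h (1.40). Late against 0h, the 1 higher gene became 2 with the mean of 3m and 6m in 7 groups, with total counts and with DESeq2, and 0 with cell number, with 14d as 1 library and with only 0h, 3m and 6m, with or without the slide block; the 0 lower genes became 7 with 7 groups. For 3m, the 0 higher genes became 1 with total counts, TMM without Cyp2e1, DESeq2, no filter, a filter of 100 counts, all transcripts with a position or 24h as 2 libraries, and the 0 lower genes became 1 with DESeq2. For 6m, the 11 higher genes became 5 with cell number, 17 with DESeq2, 18 with no filter and 4 with 14d as 1 library, and the 12 lower became 7 with total counts, 3 with cell number and 2 with 14d as 1 library. Intervals inside 2-fold went from 19 to 10 with cell number, 6 with 14d as 1 library, and 0 with only 0h, 3m and 6m (2 with the slide block). Against 48h, the 6 higher genes became 3 with total counts, 2 with cell number, 12 with DESeq2, 11 with all transcripts with a position and 10 with TMM without Cyp2e1, no filter or a filter of 100 counts; the 10 lower became 6 with cell number or 14d as 1 library. Genes with a changed zonation went from 0 to 5 with the slide block or without Cyp2e1, and 3 with tiles of 800 units. The 5 genes were not the same ones with the slide block and without Cyp2e1. Total-count scaling gave 1 gene in the middle zone of tiles, Ccnd1. Leaving out 1 section at a time gave late 0 to 11 higher and 0 to 12 lower genes (11 and 12 without 3m), 3m 0 to 15 and 0 to 9 (15 and 9 without section 1 of 0h), 6m 9 to 20 and 9 to 22, 9 to 22 intervals inside 2-fold, 3 to 13 and 3 to 20 genes against 48h, and 0 to 6 for zonation. Leaving out 1 section, the change of Fzd8 ran from -0.83 to 1.61 late, -0.88 to 1.51 at 3m and -0.79 to 1.71 at 6m; it lay below 0 with all sections, and the highest values, each called, were those without section 1 of 0h. The cause was not tested for any of these. With 2 sections a side, a change under about 2-fold could seldom be bounded, and genes with few counts, such as Ccnb1, Ccna1 and Fzd2, were limited by depth.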

Other observations

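None of the following genes of general hepatocyte metabolism passed late against 0h. Atp5a1, a subunit of the mitochondrial ATP synthase, had 34561 and 44304 CPM at 0h, 36005 CPM at 3m and 42129 CPM at 6m, with overlapping groups (-0.01). Hpd, of tyrosine breakdown, had 121437 and 90332 CPM at 0h, 73208 CPM at 3m and 88290 CPM at 6m; its change of -0.39 became 0.04 with total counts. Gls2, the glutaminase of portal hepatocytes, had 2366 and 1571 CPM at 0h, 2876 CPM at 3m and 1704 CPM at 6m (0.22, interval inside 2-fold). Elovl2, which elongates polyunsaturated fatty acids, had 6596 and 4926 CPM at 0h, 8257 CPM at 3m and 3305 CPM at 6m, so that the late sections lay on either side of 0h.

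The oxygen-regulated factors differed in behaviour. Epas1 had 4812 and 6200 CPM at 0h, 4798 CPM at 3m and 5754 CPM at 6m (-0.06, interval inside 2-fold). Hif1a was scarce, with 64.6 and 14.1 CPM at 0h, 32.8 CPM at 3m and 7.94 CPM at 6m. It was lower on slide 2 than on slide 1 at 0h and late alike, as were Oat, with 6750 and 3313 CPM at 0h, 6137 CPM at 3m and 2067 CPM at 6m, and Csad, with 390 and 84.8 CPM at 0h, 336 CPM at 3m and 67.9 CPM at 6m. The part of the slide in these values was not tested.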
